A study of Mus musculus with 2 samples.

Results

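Coagulation and fibrinolysis genes were examined in endothelium sorted from mouse kidneys at E15.5, which is Theiler stage 23. The 9 genes (Vwf, F8, F3, Thbd, Procr, Tfpi, Plat, Plau and Plaur) were chosen by name, with no threshold on their values. Every probe set that the platform annotation assigns to exactly 1 of them was taken, which gave 14 of the 45101 probe sets of the array and 9 of 18193 named genes. No probe set was shared between one of them and another gene in the annotation.

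There was 1 group of 2 arrays, called replicate 1 and replicate 2. Each array received RNA from a pool of about 5 to 10 kidneys of CD-1 embryos of unknown sex that carry GFP driven by the Tie2 promoter (Tg(TIE2GFP)287Sato). Tie2 is a receptor of endothelium, and its promoter can also be active in some blood cells, so sorting on GFP need not give endothelium alone. Whether the pools were of different litters is not labelled, and the values from the arrays may differ for technical reasons alone. The samples are titled FLK1, after another endothelial receptor, and are labelled as renal artery and vein endothelium, but the protocol dissociates whole kidneys. There was no second condition to compare with, hence the values below are described without a statistical test.

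Endothelium keeps blood fluid and still holds the means to stop a leak. Von Willebrand factor (Vwf) tethers platelets and carries coagulation factor VIII (F8), while tissue factor (F3) starts clotting when blood meets cells outside the vessel. Against these stand thrombomodulin (Thbd) and the endothelial protein C receptor (Procr), which together turn thrombin toward activating protein C, and tissue factor pathway inhibitor (Tfpi), which blocks the tissue factor complex. Clots are dissolved by plasmin, made from plasminogen by the tissue-type (Plat) and urokinase-type (Plau) activators, the second of which works on the cell surface through its receptor (Plaur).

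Of the 9 genes, 8 were above background on both arrays, and F3 was above it on neither. Over all named genes 61.2% were above background. All anticoagulant genes (Thbd, Procr, Tfpi) and all plasminogen activator genes (Plat, Plau, Plaur) were among the 8, as were Vwf and F8. Background was the 95th percentile of 86 probe sets for olfactory, vomeronasal and taste receptors, genes of sensory tissue, at intensities of 198.9 in replicate 1 and 203.9 in replicate 2. Intensities are in arbitrary units on a linear scale, and those of different probe sets are not set against each other, because brightness depends on the probes. The lowest of the 16 values of the 8 genes was 962.0, for Thbd in replicate 2, and all 8 exceeded the brightest sensory probe set of each array (390.3 and 240.5).

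**Figure D1:**
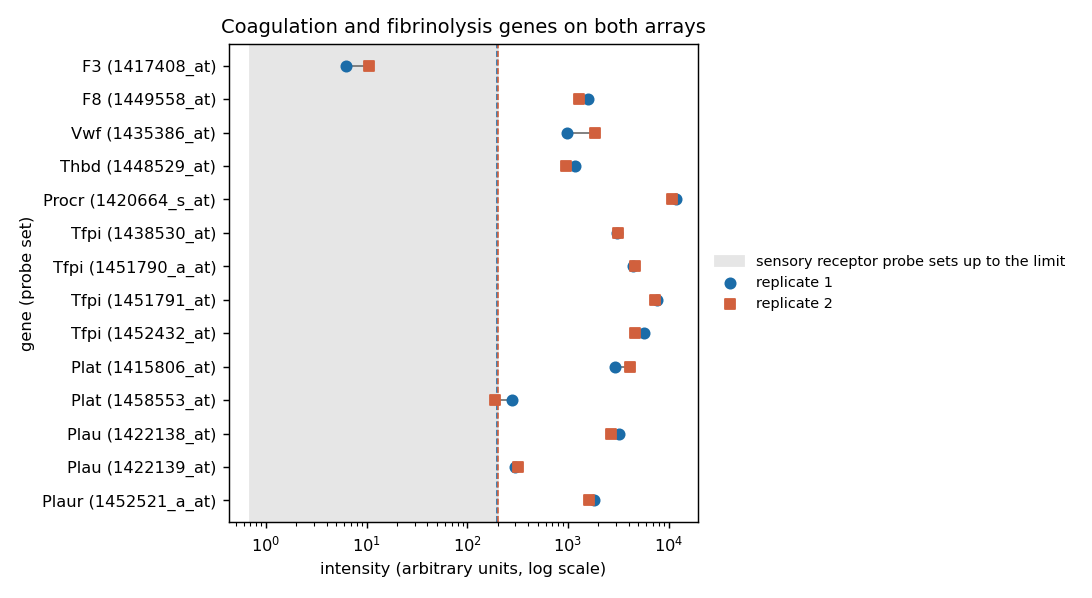
Intensity of the 14 probe sets (x axis, arbitrary units, log scale) by gene and probe set (y axis) in replicate 1 (circles) and replicate 2 (squares), with the background limits dashed and the range from the dimmest sensory receptor probe set up to the limit shaded. F3 lies inside the shaded range on both arrays, and the second Plat probe set straddles the limit.

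Tissue factor was the exception. Its 1 probe set (1417408_at) gave 6.30 in replicate 1 and 10.6 in replicate 2, well under the limits and also under the median sensory probe set (44.5 and 39.8). Of the 86 sensory probe sets, 9 were dimmer than F3 in replicate 1 and 11 in replicate 2. With 1 probe set, the value says that no signal for F3 rose above the limit here, not that the transcript was missing. Probe sets this dim varied widely between the arrays, with an SD of the log2 difference of 1.71 over the 1000 probe sets nearest in intensity, so the order of the F3 values has no weight.

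The other procoagulant members were measured on both arrays. Vwf gave 966.7 in replicate 1 and 1865 in replicate 2, a mean log2 intensity of 10.39 ± 0.67 (SD, n = 2). F8, the cofactor that Vwf protects in blood, gave 1566 and 1285 (log2 10.47 ± 0.20). Each has 1 probe set, and replicate 2 was the brighter array for Vwf and the dimmer one for F8.

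Anticoagulant genes differed little between the arrays. Thbd gave 1176 in replicate 1 and 962.0 in replicate 2 (log2 10.05 ± 0.20, n = 2). Procr gave 11876 and 10706 (log2 13.46 ± 0.11), from a probe set whose suffix (_s_at) marks probes that may also match other genes. Tfpi was read by 4 probe sets, all above background on both arrays. The brightest (1451791_at) gave 7652 and 7376 (log2 12.88 ± 0.04), and the others gave 3095 and 3168 (1438530_at), 4401 and 4675 (1451790_a_at), and 5627 and 4643 (1452432_at). The Tfpi probe sets thus made the same call, and each differed between the arrays by 1.00- to 1.24-fold, in either direction.

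Genes of plasminogen activation were above background, with some disagreement between probe sets. Plat gave 2946 in replicate 1 and 4119 in replicate 2 with its brighter probe set (1415806_at, log2 11.77 ± 0.34, n = 2). The other Plat probe set (1458553_at) gave 275.1 and 189.5 and passed the limit in replicate 1 only. Plau gave 3189 and 2659 with one probe set (1422138_at, log2 11.51 ± 0.19) and 294.6 and 318.1 with the other (1422139_at), at 1.48 and 1.56 times the limit. Plaur gave 1798 and 1600 (log2 10.73 ± 0.12) with its 1 probe set. In all, 12 of the 14 probe sets were above background on both arrays, against 55.1% of probe sets with 1 gene. Split calls such as that of Plat were common, occurring in 44.2% of the 9010 genes with several probe sets.

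Promoter sequences from RefSeq (GRCm38.p6) were found for 5 of the 9 genes, in 6 windows of 250 bases before an annotated transcript start. They are of the reference genome, not of CD-1, and the windows of Plaur and F8 and 1 of the 2 of Tfpi lie wholly inside the annotated gene, while those of Procr and the other of Tfpi overlap it in part. Vwf, Thbd, Plat and Plau had no entry in the table used. Letters of known binding motifs were searched on both strands. The AP-1 motif TGANTCA was in 3 of the 6 windows, those of F3, Procr and Plaur, and in 6.75% of 32851 promoters in the table. Several motifs were searched, and AP-1 was picked for printing after the matches were seen, so its count is a description only. F3 was below background and Procr and Plaur above it, and a link between these letters and the calls was not tested. SP1 letters (GGGCGG) were in 4 windows (32.7% of all promoters), KLF letters (CCACCC) in 2, those of Procr and F3 (28.1%), and those of ETS factors (CCGGAAG or CAGGAAG, 17.0%), GATA factors (AGATAA, 9.99%) and the TATA box (TATAAA, 12.4%) in 1 each, all of Tfpi. The window of F8 held none of them. Of 17 matches 1 overlapped another, a pair of SP1 matches in Plaur. The F3 window (chr3:121723287-121723536, plus strand) is printed because F3 was the 1 gene not above background and its 2 AP-1 matches lie close together, 146 and 135 bases before the start. It lies wholly outside the annotated gene, and 70.0% of its bases were G or C, against a median of 52.4% over all promoters. Capitals mark every motif match:
F3: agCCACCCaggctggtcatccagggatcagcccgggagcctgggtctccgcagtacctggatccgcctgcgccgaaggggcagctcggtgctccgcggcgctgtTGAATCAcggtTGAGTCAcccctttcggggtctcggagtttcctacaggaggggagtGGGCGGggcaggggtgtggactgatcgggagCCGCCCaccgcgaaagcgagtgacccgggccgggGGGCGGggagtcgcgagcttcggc
The AP-1 matches of Procr (chr2:155751053-155751079, plus strand, 154 bases before the start) and Plaur (chr7:24462404-24462430, plus strand, 69 bases before the start) are printed with 10 bases on either side, with the motif in capitals:
Procr: cccaccccccTGACTCAgcggcgacct
Plaur: cccctggagcTGACTCActctttagca
Such matches describe the letters of these windows, and binding of any factor was not measured here.

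None of the 8 genes differed by 2-fold or more between the arrays. Of all genes above background 4.82% differed by over 2-fold, so with 8 genes this does not set the members apart. Differences are log2 of replicate 1 minus replicate 2, after the medians of the arrays over probe sets above background were made equal. By their brightest probe sets, 6 of the 8 genes were brighter in replicate 1 and 2 in replicate 2, and of all genes above background 53.7% were brighter in replicate 1. The median difference of the 8 was 0.19, against 0.04 over all genes above background, and their SD was 0.45 against 0.51. Folds of 7 of the 8 were under 1.4.

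Vwf was the member furthest apart. It was 1.89-fold brighter in replicate 2, a difference of -0.92. Over the 1000 probe sets nearest to it in intensity the SD of the difference was 0.53, and 4.90% of them differed by over 2-fold. Plat was 1.37-fold brighter in replicate 2 with its brighter probe set (-0.45, against an SD of 0.48 among its neighbours), and the other Plat probe set went the opposite way (0.57), which leaves the gene with no settled direction. By their brightest probe sets the opposite direction was taken by Thbd (0.32), F8 (0.32), Plau (0.29), Plaur (0.20), Procr (0.18) and Tfpi (0.08), each within 1 SD of its neighbours, which ran from 0.41 to 0.57. The second Plau probe set (1422139_at, -0.08) and 2 of the other 3 of Tfpi (1451790_a_at, -0.06, and 1438530_at, -0.0023) went against the direction of the brightest, so Plau and Tfpi have no settled direction either. With 2 arrays none of these differences has a replicate check.

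**Figure D2:**
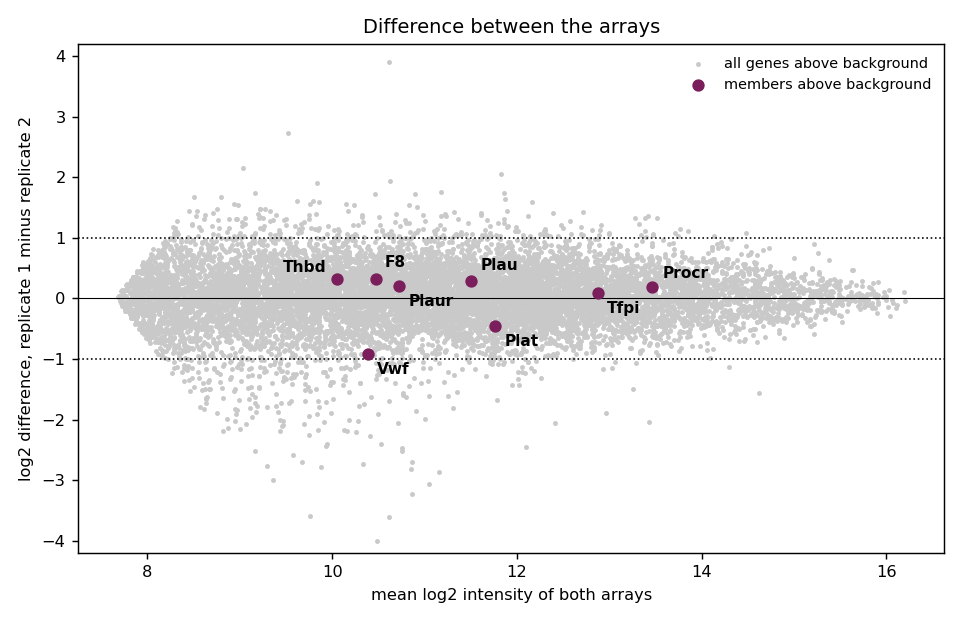
Log2 difference in intensity between the arrays (y axis, replicate 1 minus replicate 2) against mean log2 intensity (x axis) for all genes above background (grey) and the 8 members above it (purple), with dotted lines at 2-fold. Vwf, at -0.92, lies nearest to a dotted line.

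Levels of markers of other cells differed between the arrays too. Defining endothelial genes were above background in 12 of 12 cases, with summed intensities of 164349 and 149580, and 9 of the 12 were brighter in replicate 1 with a median difference of 0.19. Among them the junctional cadherin Cdh5 gave 22435 and 20733, and Tek, which encodes Tie2, gave 15908 and 21499, while the adhesion molecule Pecam1 was 1.75-fold brighter in replicate 2. Megakaryocytes and platelets, which also make Vwf, had 5 of 8 measured markers above background, with sums of 15169 and 16769. Most of these sums was the platelet chemokine Pf4 (13136 and 13626). Itga2b gave 653.2 and 813.4, and Ppbp was 2.45-fold brighter in replicate 2. Gp9 and Treml1 were above background on neither array and Gp6 in replicate 2 only. Macrophages, known to use Plau and Plaur, had 10 of 10 markers above background (Csf1r, Adgre1 and Cd68 among them), with sums of 89997 and 108017. Renal stroma showed the largest shift of these lists. Its summed level was 23483 in replicate 1 and 76028 in replicate 2. Of its 10 markers 9 were above background (Foxd1, Pdgfra and Dcn among them, with Tcf21 in replicate 2 only), all 9 brighter in replicate 2 with a median difference of -1.86. Mural markers reached 4 of 7, with sums of 6640 and 11360 (Pdgfrb, Rgs5 and Cspg4 above, Des on neither array, and Tagln and Myh11 in replicate 2 only). Podocyte markers reached 3 of 5, with sums of 37337 and 41094. Most of these sums was Podxl (29868 and 30060), which endothelium also makes, and Cdkn1c (6224 and 8242). Synpo, of the podocyte cytoskeleton, gave 1012 and 2346 (2.27-fold), Wt1 was above background in replicate 2 only, and Nphs1, the slit diaphragm protein, on neither array. Ureteric bud and tubule markers reached 3 of 10, with sums of 2144 and 2620 (Wnt11, Gata3 and Krt8 above, Ret and Wnt9b on 1 array each). Of all genes 61.2% were above background. The megakaryocyte (62.5%), podocyte (60%) and mural (57.1%) lists were near that share, so their counts do not set them apart from all genes. No marker was listed at 0. The part of these cells in the values of Vwf, Plat or any other member was not tested, and in sorted bulk RNA fewer cells of a type and less RNA per cell cannot be told apart.

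**Figure D3:**
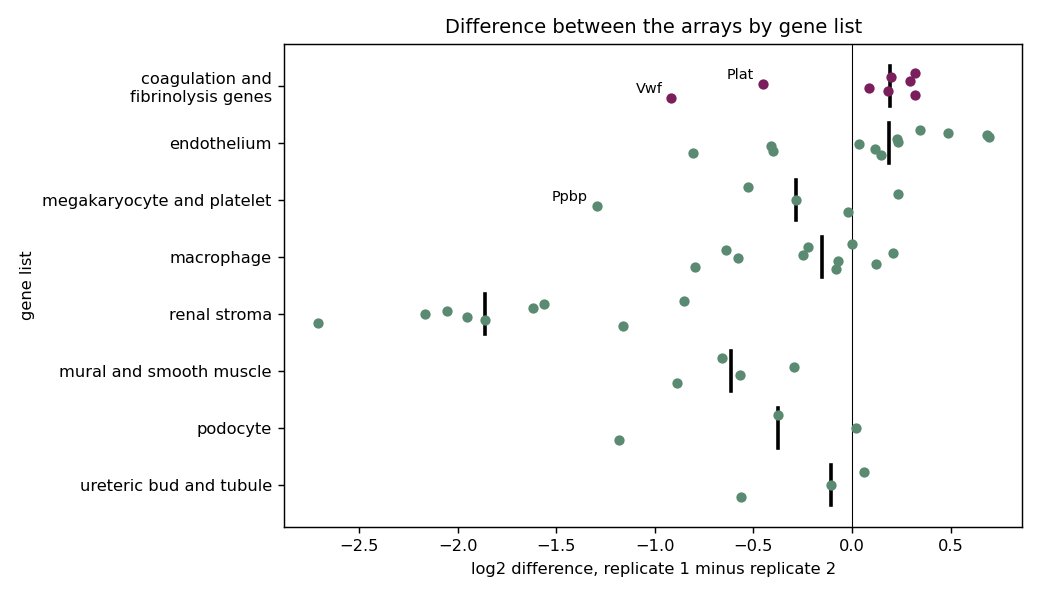
Genes above background on both arrays (points), placed by their log2 difference between the arrays (x axis, replicate 1 minus replicate 2) and by list (y axis), with list medians as black marks. The coagulation and fibrinolysis genes have a median of 0.19 and the renal stroma markers one of -1.86. Vwf lies on the side brighter in replicate 2, where every cell type list has markers. All of these lists except renal stroma and mural cells also have markers on the other side.

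Genes for proteins that act with the members were listed by role or by the main site where they are known to be made. Of 18 measured genes for pericellular partners, 16 were above background, and of 12 for the Weibel-Palade body (the storage granule of Vwf) and factor VIII transport 11 were. Of 17 measured genes for plasma proteins made mainly by the liver, 1 was, against 61.2% of all genes. Under the alternatives the first count ran from 13 to 17 of 18 (12 of 15 with probe sets without a suffix) and the second from 9 to 12 of 12. The last count moved with the limit, to 5 of 17 at a limit of 100 and to 0 at 2 times the limit or the 99th percentile, and was 3 of 17 in replicate 1 alone. These lists were chosen with earlier results of the arrays known.

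On the cell surface, the thrombin receptor F2r gave 55498 in replicate 1 and 56324 in replicate 2. The related receptors F2rl2 (308.1 and 277.7) and F2rl3 (558.9 and 583.2) were also above background, F2rl2 with 1 of its 2 probe sets. All 3 thrombin receptor genes measured differed little between the arrays, by at most 1.13-fold. Pros1, protein S, the cofactor of activated protein C, gave 2618 and 3678, and its relative Gas6 gave 3541 and 4453. Gas6 passed with 1 of its 2 probe sets. Hs3st1, which makes the antithrombin-binding form of heparan sulfate, gave 790.0 and 838.7. Entpd1, which removes the platelet agonist ADP, gave 1797 and 2226, whereas Nt5e, the next enzyme of that path, was above background on neither array (145.1 and 160.9). For plasminogen, the annexin Anxa2 gave 25335 and 24340, its partner S100a10 gave 26577 and 19261, and the receptor Plgrkt gave 3608 and 3681. Each of these plasminogen-binding genes was above background on both arrays, Anxa2 with 2 of its 3 probe sets. Among inhibitors, Serpini1 (236.2 and 349.3) and Tfpi2 (216.2 and 402.5) were above background by small margins in replicate 1. Serpini1 passed with 1 of its 3 probe sets. Serpinb2, which inhibits urokinase, was not above background (34.4 and 58.5).

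Genes for storing Vwf and moving F8 were mostly above background. Angpt2, a granule cargo, gave 1111 in replicate 1 and 1383 in replicate 2, and the granule GTPase Rab27a gave 568.9 and 600.9. Angpt2 passed with 1 of its 2 probe sets and Rab27a with 1 of its 4. P-selectin (Selp), the adhesion receptor stored beside Vwf, was above background in replicate 1 only (384.8 and 98.9). Lman1 and Mcfd2, which together form the cargo receptor that carries F8 out of the endoplasmic reticulum, gave 25117 and 28036, and 7993 and 8668. Of the 5 Lman1 probe sets 4 passed. Furin, which cleaves the Vwf propeptide, gave 702.9 and 624.8. Stab2, a scavenger receptor of sinusoidal endothelium that clears Vwf with F8, gave 6367 and 3672, a 1.77-fold difference in the direction opposite to Vwf.

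All but 1 of the measured substrates and circulating factors were near or under the limit. Prothrombin (F2) gave 167.3 in replicate 1 and 144.9 in replicate 2, and F7, the partner of tissue factor, gave 189.4 and 20.7. The ligand of Procr, protein C (Proc), gave 21.6 and 74.7, and plasminogen (Plg), the substrate of Plat and Plau, gave 9.65 and 17.3. The 3 fibrinogen genes lay between 6.01 and 25.0. Factor V (F5), which megakaryocytes also make, was the 1 gene above background at 215.4 and 609.6, 2.77-fold brighter in replicate 2, and it passed with 1 of its 2 probe sets.

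**Figure D4:**
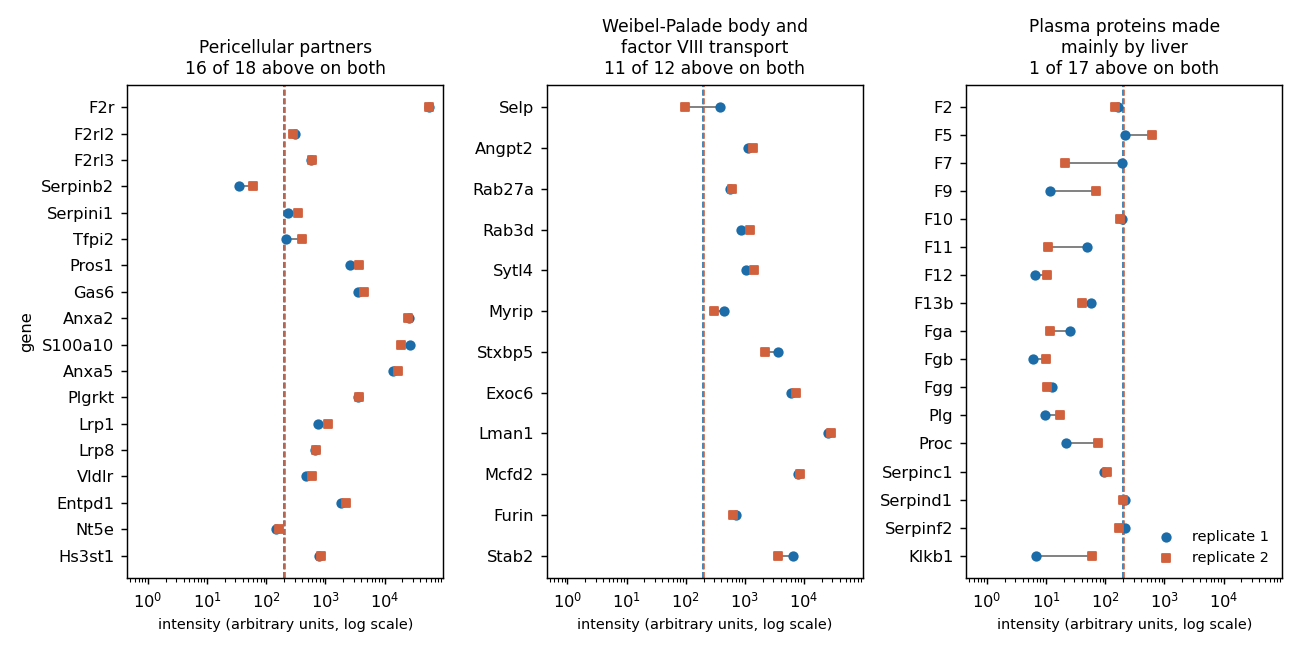
Intensity (x axis, arbitrary units, log scale) of the measured genes of the 3 partner lists (y axis) in replicate 1 (circles) and replicate 2 (squares), with the background limits dashed. Counts above background on both arrays were 16 of 18, 11 of 12 and 1 of 17.

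The count of members was 8 of 9 at fixed limits from 50 to 800 on both arrays. It fell to 4 at 1600, 2 at 3200 and 6400, and 0 at the highest limit tried. The share of all genes fell as well, from 81.4% at 50 to 43.7% at 800. It was 33.7% at 1600, 22.7% at 3200 and 12.7% at 6400, so the fall at these limits does not set the members apart. At 100, a minimum raw level that the methods of the study name for another array type, whose scale may differ, the same 8 genes were above it, with 72.7% of all genes. At the 99th percentile of the sensory probe sets the 8 were above it with 56.7% of all genes, and at 2 times the main limit with 52.5%. F3 was above none of the limits tried.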

How the data were processed

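RNA of Tie2-GFP cells sorted from trypsin-treated E15.5 kidneys was amplified in 2 rounds, biotin-labelled and hybridised to a 3' Affymetrix mouse array, 1 array per pool. The authors deposited linear intensity values, 1 for each probe set, and no detection calls were in the table used. GCOS is the software named in the processing notes of the submitters, without a version. The mean of each array without the lowest and highest 2% of values was 1500.01, which shows that the authors scaled both arrays to 1 mean, and a difference in total signal would not be seen. For the probe annotation, a genome build was not found in the labels or the study. The study's methods are for a different array and were not applied, apart from their minimum raw level of 100, tried as another limit.

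Of 45101 probe sets, 34945 have 1 gene, 932 have several, 9160 have none and 64 are controls; 34741 probe sets matched a current gene identifier (GRCm38.p6), which changed 0 symbols. Genes are represented by their brightest probe set over both arrays. Probe sets were called above background if they exceeded the limit on both arrays. Centring removed an offset of -0.03 (log2). The centring and the differences were tested on simulated data with the same noise at all intensities, unlike the arrays. The share of sensory probe sets over the background limit is fixed by its definition, so the limit itself was not tested. Other limits, probe set choices, scalings, a log2 offset of 50 and each array alone were tried. Python 3.11.15, numpy 2.4.6 and pandas 2.3.3 were used.

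The members, gene lists and limits were chosen with earlier results of these data known. All members are named, with the first 3 measured genes of each other list and up to 4 of its genes whose call went against the majority of the list; values of cell type markers are given for some of these only. Podxl, Cdkn1c, Pros1, Gas6, Hs3st1, Entpd1, Anxa2, S100a10, Plgrkt, Serpini1, Tfpi2, Lman1, Mcfd2, Furin, Stab2, Proc, Plg and the fibrinogens were named for their roles after their values were seen.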

Additional observations from a re-analysis of the deposited data

How the results depend on the processing

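With 1 group, no paired analysis was possible because there was no second group to pair. The number of members above background was 8 of 9 under every alternative except with probe sets without a suffix, which left 7 genes measured and 6 above. Several alternatives could not lower this count. The calls already required both arrays, and centring does not enter them. The other limits tried in this section lay below 962.0, the lowest value of the 8 genes. Probe sets above background ranged from 11 to 13 of 14, and 9 of 11 without suffixed ones. Under no alternative was a member above background over 2-fold apart, and the median difference ran from 0.15 to 0.23. Of 70 member differences under the alternatives, 69 kept their sign. The exception was Plat, at 0.06 instead of -0.45 when its probe sets were represented by their median, since they went opposite ways. Most of these signs could hardly change. Another limit or no centring shifts all differences by the same small amount. A gene with 1 probe set keeps its value, or is left out, under another choice of probe sets. Counts of liver-made plasma proteins moved most, from 1 of 17 to 5 at a limit of 100, to 0 at 2 times the limit and to 0 at the 99th percentile. They were 1 without replicate 1 and 3 without replicate 2. Leaving out an array allows no difference between arrays, so only calls were recomputed. The number of arrays limits the precision: 2 arrays of 1 group give a spread but no test.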
